A study of Mus musculus with 4 samples.

Results

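The genes examined here are 6 of the genes through which mitochondria take up and release calcium: Mcu, Smdt1, Micu2, Micu3, Slc8b1 and Letm1. They were picked by gene symbol for their role, with earlier results of these data known, and all 6 were found in the authors' table of 48432 genes, each as 1 row with the status OK in both groups. The table came from polyadenylated RNA of cardiomyocytes freed from mouse hearts by Langendorff perfusion. The mice, of the strain C57BL x FVB, had the genotype MHC (MHC control, 2 libraries) or RbFox2 (Rbfox2 OE, 2 libraries), and mice of both genotypes were fed doxycycline for 3 days, so the diet is shared by the controls. RBFOX2 is a splicing regulator, and the series concerns overexpression of its non-muscle isoform. The labels give neither the age of the animals, nor the promoter that drives expression, nor whether a library came from 1 animal or a pool. The table gives 1 pooled value per group in FPKM (fragments counted per length of transcript and per size of the library), with a lower and an upper bound that are given below as its interval, so there is no spread between libraries and no test between groups. A gene was counted as different only where the bounds of the groups did not overlap. The level of these bounds is not stated.

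Mitochondrial calcium uptake runs through the uniporter, a channel of the inner membrane. Mcu encodes its pore, Smdt1 encodes EMRE, a small membrane protein that the pore needs in order to conduct, and the Micu genes encode EF-hand proteins that keep the channel closed at resting calcium and open it when calcium rises. Slc8b1 encodes NCLX, the exchanger that returns calcium from the matrix in exchange for sodium, and Letm1 encodes an inner membrane protein of cation and proton exchange that is needed for normal mitochondrial volume. In the heart, matrix calcium stimulates the dehydrogenases that feed respiration, and its overload opens the permeability transition pore.

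Of the 6 genes, Micu2 was lower in Rbfox2 OE with separate bounds, at 0.483 times its control level. Bounds separate in this direction were found for 9.33% of the 11697 genes whose mean over the groups reached 1 FPKM, the genes compared throughout. None of the 6 was higher with separate bounds, against 6.67% of all genes compared. Rescaling without mitochondrially encoded and top genes turned these shares to 7.05% and 8.69%. Letm1, Mcu and Micu3 stood at 0.320, 0.555 and 0.559 times their control levels with bounds that overlapped. Smdt1 was close to its control level at 0.869 times, and Slc8b1 stood at 1.37 times with bounds too wide to give a direction. On the log2 scale with a pseudocount of 1 FPKM, 5 of the 6 ratios were below 0, as were 53.8% of all genes compared, and their median was -0.62 beside -0.06 for all genes. A 2-fold difference in either direction, a log2 ratio of 1 or more in size, was reached by 2 of 6, Letm1 and Micu2, both lower, against 17.0% of all genes. At 1.5-fold Mcu joined them, giving 3 of 6 lower against 22.1% of all genes, and 0 of 6 were higher against 16.6%.

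**Figure D1:**
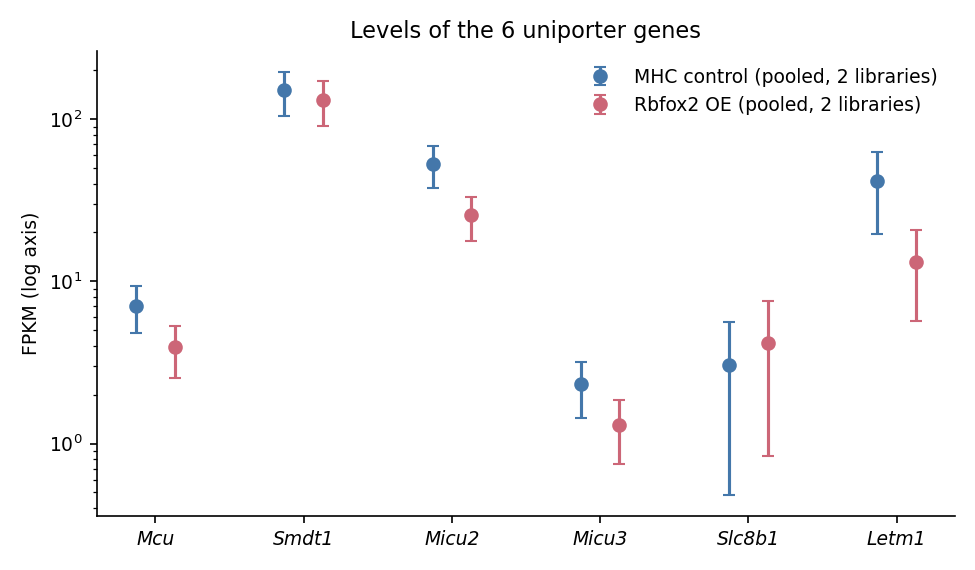
Level of each uniporter gene in FPKM, on a log axis, in MHC control and Rbfox2 OE; points are the authors' pooled values of 2 libraries and bars their lower and upper bounds. Only the bars of Micu2 do not overlap, with the control bar starting at 37.4 FPKM and the Rbfox2 OE bar ending at 33.3 FPKM.

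Across the whole table, the labels were checked by the targeted gene: Rbfox2 stood at 14.7 FPKM in controls and 293 FPKM in Rbfox2 OE. The FPKM of all genes came to 512908 in controls against 446802 in Rbfox2 OE, and 30 and 26 genes carried the status HIDATA and were listed at 0. The cell type was checked by 8 cardiomyocyte markers. They summed to 56062 FPKM in controls and 36761 FPKM in Rbfox2 OE, with 2 of the 7 compared lower with separate bounds and Myh6 listed at 0 in both groups with the status HIDATA. Of these 7, 6 had log2 ratios below 0, while Ttn stood higher at 166 and 252 FPKM with overlapping bounds. The summed markers of other cells moved the other way from the cardiomyocyte sum. Of the fibroblast markers 5 of 6 were higher with separate bounds (summed level 190 FPKM in the control, 468 FPKM in Rbfox2 OE), and of the macrophage and leukocyte markers 5 of 6 (52.7 and 217 FPKM). Endothelial markers were higher with separate bounds for 3 of 6 (162 and 310 FPKM). The same held for 3 of 6 smooth muscle and pericyte markers (140 and 319 FPKM) and 4 of 4 red blood cell markers (56.1 and 294 FPKM). Of all genes compared, 9.33% were lower and 6.67% higher with separate bounds. The part of these cells in the values of the uniporter genes was not tested, and fewer cardiomyocytes cannot be told apart from less of a transcript in each.

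Mcu, the pore (ENSMUSG00000009647, GRCm38 chromosome 10, 59446984 to 59616692, minus strand; a protein-coding gene), measured 7.08 FPKM in controls, with an interval of 4.82 to 9.34, and 3.93 FPKM in Rbfox2 OE, with an interval of 2.54 to 5.32. Its log2 ratio was -0.71, and the nearest and farthest pairs of bounds gave 0.12 and -1.55. The overlap of the bounds was narrow, 0.505 FPKM wide. Of all genes compared, 17.5% had a lower log2 ratio than Mcu. The level of the pore transcript exceeded that of 46.1% of genes in the control and of 31.1% in Rbfox2 OE. The span of Mcu holds 1 other annotated gene, Gm10322 on the opposite strand, which was listed at 0 in both groups.

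Smdt1 (ENSMUSG00000022452, chromosome 15, 82338959 to 82349091, plus strand; a protein-coding gene), which encodes EMRE, was the most abundant of the 6 in both groups. It measured 150.2 FPKM in controls, with an interval of 105 to 196, and 131 FPKM in Rbfox2 OE, with an interval of 90.6 to 171, above 95.9% and 95.5% of the genes compared. Its log2 ratio of -0.20 had a range by the bounds from -1.10 to 0.70. The small difference between the groups had no fixed direction: it turned to 0.00044 when the groups were scaled to an equal upper quartile and to 0.31 when they were scaled to a list of 20 mitochondrial genes. The annotated gene Pheta2, which overlaps the start of Smdt1 on the same strand, stood at 0.193 and 0.266 FPKM.

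Micu2 (ENSMUSG00000021973, chromosome 14, 57916261 to 57999262, minus strand; a protein-coding gene), a gatekeeper of the channel, was the second most abundant of the 6. It measured 53.0 FPKM in controls, with an interval of 37.4 to 68.5, and 25.6 FPKM in Rbfox2 OE, with an interval of 17.8 to 33.3, which left a gap of 4.11 FPKM between the bounds. Its log2 ratio was -1.02, with a range from -1.88 to -0.16, and 9.58% of all genes compared had a lower one. The gene overlaps no other annotated gene and its bounds were the narrowest of the 6, at 29.3% and 30.3% of the value. The bounds came to overlap when the groups were scaled to an equal upper quartile (log2 ratio -0.83) or to the 20 mitochondrial genes (-0.52), scalings that moved the median of all genes to 0.11 and 0.38.

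Micu3 (ENSMUSG00000039478, chromosome 8, 40307458 to 40386308, plus strand; a protein-coding gene), the family member best known from the nervous system, was the lowest of the 6 in both groups. It measured 2.31 FPKM in controls, with an interval of 1.43 to 3.20, and 1.29 FPKM in Rbfox2 OE, with an interval of 0.747 to 1.84. Its plain ratio of 0.559 lay next to that of Mcu, while the pseudocount held its log2 ratio at -0.53. Without a pseudocount the log2 ratio was -0.84. Of the neighbours that overlap its start on the opposite strand, Fgf20 stood at 0.0973 FPKM in the control and was listed at 0 in Rbfox2 OE, and Mir7666 was listed at 0 in both.

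Slc8b1 (ENSMUSG00000032754, chromosome 5, 120511168 to 120534024, plus strand; a protein-coding gene), the efflux exchanger, was the 1 gene of the 6 with a higher value in Rbfox2 OE. It measured 3.06 FPKM in controls, with an interval of 0.485 to 5.64, and 4.19 FPKM in Rbfox2 OE, with an interval of 0.834 to 7.54, and each group's value lay within the bounds of the other. The bounds reached 84.2% and 80.1% of the value to either side, against a median of 38.4% and 39.3% over all genes compared. The range of its log2 ratio of 0.35 therefore ran from -1.86 to 2.52. The annotation gives Slc8b1 6 protein-coding transcripts, the most among the 6 genes, and no overlapping gene.

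Letm1 (ENSMUSG00000005299, chromosome 5, 33739673 to 33782817, minus strand; a protein-coding gene) had the lowest ratio of the 6, but its bounds overlapped. It measured 41.4 FPKM in controls, with an interval of 19.6 to 63.1, and 13.2 FPKM in Rbfox2 OE, with an interval of 5.72 to 20.7, a fold of 3.13 between the values. Its log2 ratio was -1.57, with 2.93% of all genes compared lower still. The bounds were wide, 52.6% and 56.7% of the value, and overlapped by 1.09 FPKM, so the range of the log2 ratio ran from -3.25 to 0.07. A pair of processed pseudogenes inside its span on the opposite strand, Gm10059 and Gm30708, were listed at 0 in both groups.

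**Figure D2:**
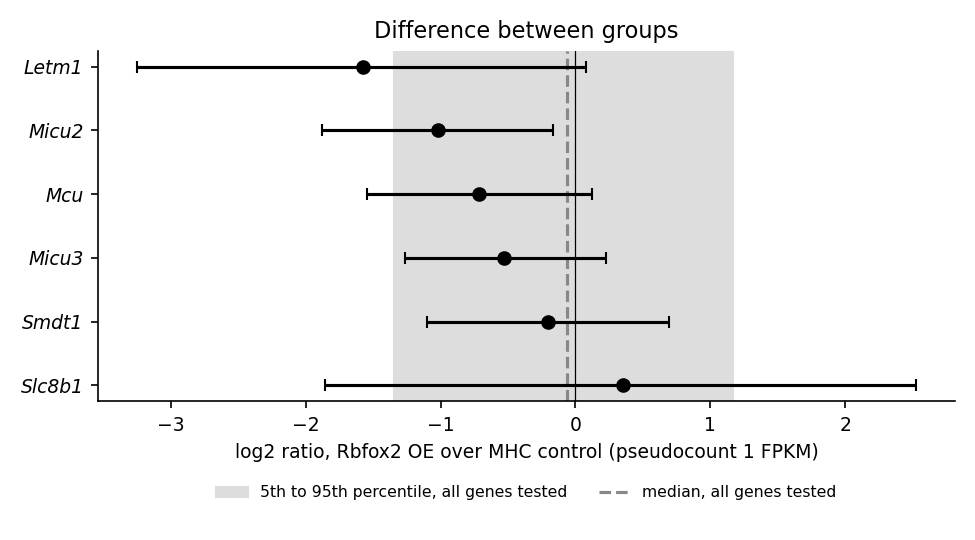
Log2 of Rbfox2 OE divided by MHC control for the 6 uniporter genes (x axis, pseudocount 1 FPKM); points are the ratios of the pooled values and bars run between the ratios that the farthest and nearest bounds give. The grey band is the 5th to 95th percentile of all 11697 genes, from -1.35 to 1.17: Letm1 lies beyond it at -1.57 with a bar that crosses 0, and Micu2 lies inside it at -1.02 with a bar that does not.

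The order of levels, which FPKM allows since it is per length, ran Smdt1, Micu2, Letm1, Mcu, Slc8b1 and Micu3 in the control. The steps from Smdt1 to Micu2 (2.84-fold) and from Letm1 to Mcu (5.84-fold) were larger than the bounds, while Micu2 and Letm1, Mcu and Slc8b1, and Slc8b1 and Micu3 did not differ beyond theirs. In Rbfox2 OE Mcu and Slc8b1 changed places at 3.93 and 4.19 FPKM, a difference within the bounds. There the steps from Smdt1 to Micu2 (5.11-fold) and from Mcu to Micu3 (3.03-fold) were larger than the bounds, and the others were not.

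Ratios within a group do not depend on how the groups were scaled to each other. Smdt1 exceeded Mcu 21.2-fold in the control (range by the bounds 11.2 to 40.6) and 33.2-fold in Rbfox2 OE (17.0 to 67.2). Micu2 stood at 7.48 times Mcu in the control (4.01 to 14.2) and 6.51 times in Rbfox2 OE (3.35 to 13.1). The ratio of Micu3 to Mcu was 0.327 (0.153 to 0.664) and 0.330 (0.140 to 0.726). The ratios of Micu2 and Micu3 to the pore transcript thus differed between the groups by far less than the bounds span, and the 1.57-fold difference in the Smdt1 ratio was also within them. Letm1 went from 5.84 to 3.36 times Mcu and Slc8b1 from 0.432 to 1.07 times, both with overlapping ranges.

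**Figure D3:**
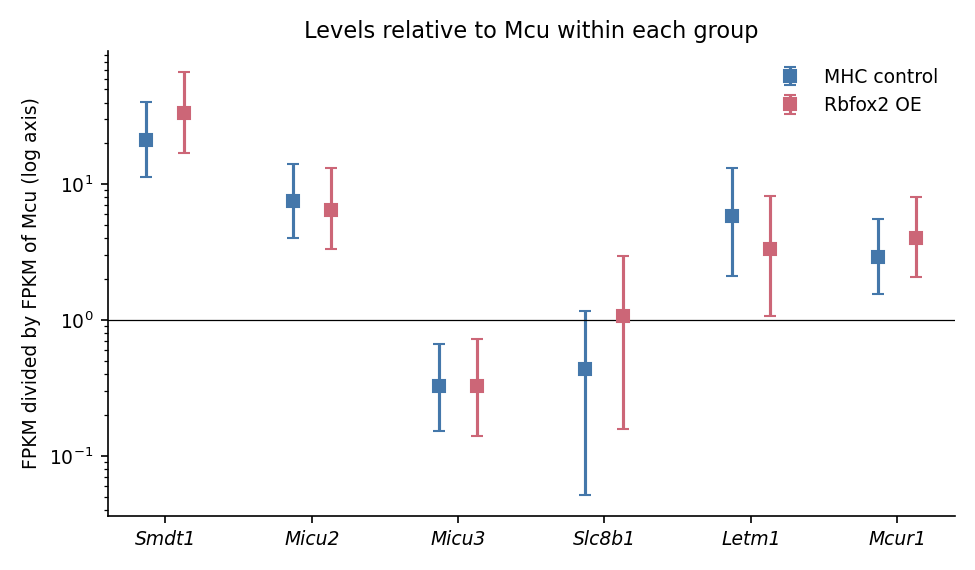
FPKM of each gene divided by the FPKM of Mcu in the same group, on a log axis; bars are the range that the bounds of both genes give and the line marks equality with Mcu. The ranges of the groups overlap for each gene shown, and Smdt1 lies highest, at 21.2 and 33.2 times Mcu.

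The sequences before the starts of Mcu and Micu2 are shown because these genes of the same channel had lower values in Rbfox2 OE and no annotated exon of either lies in its window. RefSeq's promoter table for GRCm38.p6 matched 4 of the 6 genes, namely Mcu, Smdt1, Micu2 and Letm1. Capitals mark matches on either strand to the GC box, GGGCGG, or to the box spelled CCAAT. These are the motifs found here among 5 searched, which were chosen after the sequences had been seen. The windows are the 250 bases before the start, chr10:59616693-59616942 for Mcu and chr14:57999263-57999512 for Micu2, both on the minus strand.
Mcu: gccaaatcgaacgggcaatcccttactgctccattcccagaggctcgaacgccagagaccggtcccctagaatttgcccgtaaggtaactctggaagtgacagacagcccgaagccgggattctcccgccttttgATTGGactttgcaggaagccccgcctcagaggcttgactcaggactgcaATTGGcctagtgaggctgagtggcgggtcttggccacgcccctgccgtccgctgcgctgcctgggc
Micu2: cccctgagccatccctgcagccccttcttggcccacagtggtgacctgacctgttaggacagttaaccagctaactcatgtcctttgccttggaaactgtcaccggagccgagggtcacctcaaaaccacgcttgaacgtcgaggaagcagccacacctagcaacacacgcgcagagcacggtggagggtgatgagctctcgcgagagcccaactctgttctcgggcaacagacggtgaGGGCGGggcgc
Mcu holds CCAAT at 2 places, both in reverse, and no GC box, whereas Micu2 holds 1 GC box and no CCAAT. Of all 32526 distinct windows of this length, 33.8% hold CCAAT and 33.0% hold GGGCGG. The window of Smdt1 holds 3 GC boxes and 1 TGACGTCA (CRE), a motif present in 1.56% of all windows, and that of Letm1 holds 3 GC boxes and 1 CCAAT. Both of these windows hold an annotated exon of their own gene. That of Smdt1 lies inside the gene span given above, and that of Letm1 lies partly inside its span. None of the 4 windows holds the TATA box TATAAA, present in 12.3% of all windows, or the ERR half-site AAGGTCA, present in 4.09%. The 4 windows were rich in G and C, from 60.4% to 63.6%, against a median of 52.4%. The window of Micu2 also holds an exon of 3110083C13Rik, a noncoding gene that starts in the opposite direction.

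RBFOX proteins bind RNA at UGCAUG, so its DNA spelling TGCATG was searched on the sense strand of the longest annotated coding transcript of each gene (GENCODE M21). Matches are a description of letters and not of binding, and introns, where RBFOX2 acts on splicing, were not searched. Mcu and Micu3 hold 2 matches each, Slc8b1 and Letm1 hold 1 each, and Smdt1 and Micu2 hold none. All 6 matches lie in the 3' untranslated region. They are shown for Mcu and Letm1 with 10 bases to either side and the match in capitals, numbered from the transcript's first base.
Mcu at 1799: ctggcaatacTGCATGagggtttttg
Mcu at 2592: agagaaaggaTGCATGtctcggtccc
Letm1 at 3915: aggtgattctTGCATGtaaacctgtg
Among the genes compared with a longest coding transcript within 20% of the same length, 52.4% hold the motif for the length of Mcu, 72.9% for Letm1, 48.5% for Micu3, 52.7% for Slc8b1, 46.0% for Micu2 and 14.6% for Smdt1. Micu2, the gene with separate bounds, was thus among those without a match.

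The remaining genes of the complex and its handling were read from lists. Of 3 other subunits and regulators, 2 were compared and 0 had separate bounds, beside 9.33% of all genes lower and 6.67% higher. Mcur1, a scaffold of the complex, stood at 20.7 FPKM in controls and 15.7 FPKM in Rbfox2 OE, and Slc25a23, a carrier reported to interact with it, stood at 25.6 and 30.4 FPKM. Mcub, the paralogue of Mcu that lowers conduction when it joins the pore and is named here after its values were seen, was under the mean of 1 FPKM. It measured 0.294 FPKM in controls, with an interval of 0 to 0.631, and 1.64 FPKM in Rbfox2 OE, with an interval of 0.411 to 2.87. These overlapped narrowly. Relative to Mcu, Mcub was 0.0416 in controls (range by the bounds 0 to 0.131) and 0.418 in Rbfox2 OE (0.0772 to 1.13), with overlapping ranges. The sums of every marker list of other cells given above moved in the same direction, those of macrophages and leukocytes among them. The part of these cells in the Mcub value was not tested.

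Among 7 genes for the proteolysis and assembly of EMRE and MICU proteins, 0 had separate bounds, beside 9.33% of all genes lower and 6.67% higher. Their median log2 ratio was -0.11. Afg3l2, a subunit of the protease that removes unassembled EMRE, stood at 60.3 FPKM in controls and 61.6 FPKM in Rbfox2 OE. Maip1, which protects new EMRE, stood at 6.36 and 7.76 FPKM, Yme1l1, an inner membrane protease, at 14.9 and 10.9 FPKM, and Chchd4, the oxidoreductase that links MICU proteins, at 6.96 and 7.17 FPKM. The prohibitin genes Phb and Phb2 had log2 ratios of -0.11 and -0.62. Spg7, the partner of Afg3l2, stood at 49.8 and 33.4 FPKM with lower bounds of 0, in a locus that the table merges with many other genes.

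Of 6 genes of inner membrane exchange and swelling, 1 was lower with separate bounds and 0 higher, beside the same 9.33% and 6.67% of all genes. Ppif, which encodes cyclophilin D, the regulator of the permeability transition pore, measured 166 FPKM (118 to 214) in controls and fell to 54.4 FPKM (38.0 to 70.9), which is a log2 ratio of -1.59. Ghitm, which encodes a further inner membrane calcium exchange protein, stood at 169 and 147 FPKM, a log2 ratio of -0.20 equal to that of Smdt1. The Letm1 paralogue Letm2 stood at 4.65 and 6.26 FPKM, and the related Letmd1 at 2.04 and 2.73 FPKM. The values of Letm1 and its relatives lay on different sides of the control, but the bounds of all of them overlapped, so no difference in direction can be read. The uncoupling protein genes Ucp3 and Ucp2 had log2 ratios of -1.15 and -0.47 with overlapping bounds. The median of this list was -0.33.

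On the route of calcium into mitochondria, 4 of 11 genes of outer membrane passage and reticulum contact fell with separate bounds and 0 rose, beside 9.33% and 6.67% of all genes. Rescaling without mitochondrially encoded and top genes left 3 of the 11 lower, where the shares of all genes were 7.05% and 8.69%. Mfn1 and Mfn2, which encode the mitofusins that fuse and tether mitochondria, fell from 165 to 31.7 FPKM and from 212 to 75.7 FPKM, log2 ratios of -2.34 and -1.47. Rhot1, a calcium-binding GTPase of mitochondrial transport, had a log2 ratio of -1.11, and Vdac3, a channel of the outer membrane, -0.90. The median of the 11 was -0.27, and Vdac1 and Vdac2 had log2 ratios of -0.27 and -0.17. Above 0 were 4 of the 11, with overlapping bounds. These were the 3 Itpr genes of the reticulum's calcium release channels, from 0.15 to 0.98, and Hspa9 at 0.60.

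The calcium-responsive matrix enzymes and carriers had the lowest median of the mitochondrial lists, -0.85, with 5 of 11 lower with separate bounds and 0 higher, beside 9.33% and 6.67% of all genes. The same rescaling gave 4 lower and 1 higher. Slc25a13, a calcium-regulated aspartate and glutamate carrier, measured 47.1 FPKM (32.8 to 61.5) in controls and fell to 5.98 FPKM (3.56 to 8.40), which is a log2 ratio of -2.79. Its paralogue Slc25a12 fell from 112 to 45.8 FPKM. The dehydrogenase genes Ogdh and Idh3a, whose enzymes calcium stimulates, had log2 ratios of -1.23 and -1.18, and Pdp1, the calcium-activated pyruvate dehydrogenase phosphatase, had -0.99. The calcium-regulated carriers of adenine nucleotides and phosphate, named after their values were seen, lay above the control. Slc25a24 measured 1.42 FPKM (0.852 to 1.99) in controls against 2.89 FPKM (1.88 to 3.89) in Rbfox2 OE, with bounds that became separate on that rescaling, and Slc25a25 measured 5.73 against 9.04 FPKM with overlapping bounds.

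As a reference, 20 genes of mitochondrial mass, import and respiration had a median of -0.51, with 5 (3 on that rescaling) lower with separate bounds (Ppargc1a, Slc25a3, Sdha, Ndufs1 and Uqcrc1, from -1.46 to -0.91) and 0 higher. Of all genes compared, 9.33% were lower and 6.67% higher by this count, or 7.05% and 8.69% on that rescaling. Their summed level went from 12111 to 8479 FPKM. Its largest parts were Slc25a4, Atp5a1 and Cox4i1, at 2628, 2148 and 1896 FPKM in controls, with log2 ratios of -0.37, -0.43 and -0.25. Cox4i1 lies in a locus that the table merges with many other genes. Against the reference sum the log2 change was -0.54 for Micu2, -0.34 for Mcu, -0.32 for Micu3, -1.13 for Letm1, 0.31 for Smdt1 and 0.97 for Slc8b1. Against the summed cardiomyocyte markers it was -0.44 for Micu2, -0.24 for Mcu, -0.23 for Micu3, -1.04 for Letm1, 0.41 for Smdt1 and 1.06 for Slc8b1. These changes carry no range. Most of the marker sum came from Myl2 and Tnnt2, at 24688 and 10609 FPKM in controls, and Myh6 entered it at 0. The log2 ratios of the markers compared ran from -1.19 for Actc1 to 0.60 for Ttn, so the changes depend on the marker taken. The median of the 6 uniporter genes, -0.62, thus lay between that of the reference list and that of the calcium-responsive list, and nothing particular to the uniporter can be read from it.

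**Figure D4:**
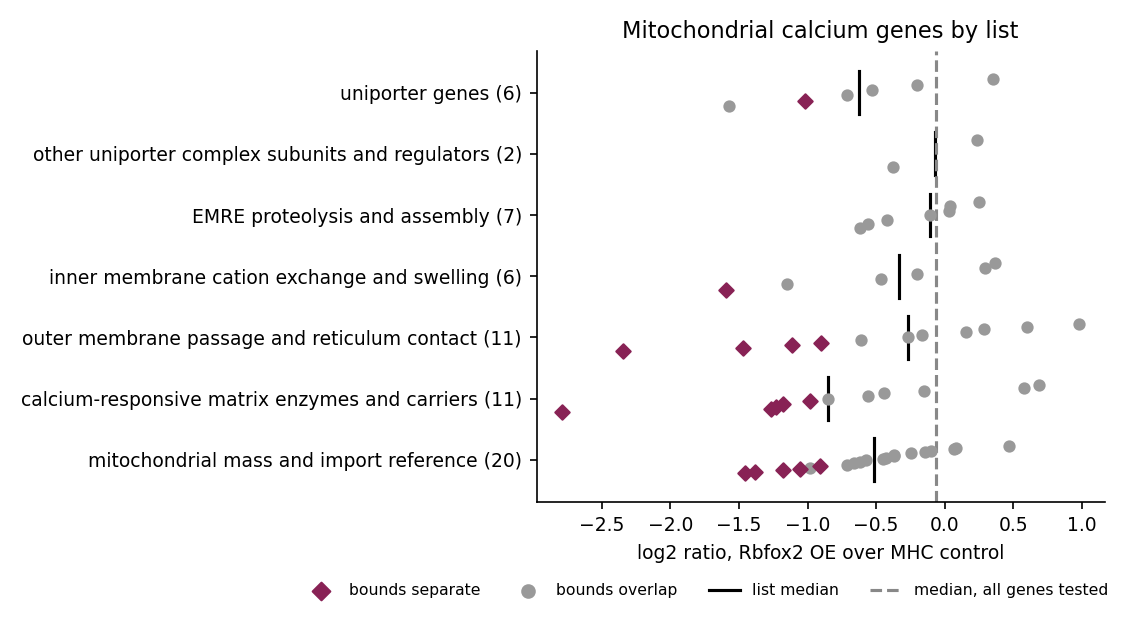
Log2 of Rbfox2 OE divided by MHC control (x axis) for each gene compared in the 6 genes and the 6 mitochondrial lists, with the number compared in brackets; diamonds have separate bounds, circles overlapping ones, short lines are list medians and the dashed line the median of all genes, -0.06. All diamonds shown lie below 0, and the lowest is Slc25a13 at -2.79.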

How the data were processed

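Messenger RNA of 4 libraries, 2 of MHC control and 2 of Rbfox2 OE, was grouped by the title labels. The authors deposited gene-level FPKM from Cuffdiff, per the file headers, with 1 value, a lower and an upper bound and a status per group and no value per library, so 0 per-library columns were left unused. The submitters' processing notes name Cuffdiff 2.2.1, STAR 2.4.2a, Trimmomatic and Picard 1.119, among others, and the builds GRCm38 and mm10. The normalization mode, annotation and strand option are not given in the sources used here, and the depth in reads is unknown.

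The design called for limma where values per library were given. The table has none, so log2 ratios with a pseudocount of 1 FPKM, which understates changes of low genes, and the authors' bounds were used, without p-values. Rows sharing a name (110 names) were summed, and a gene was compared where its mean over the groups reached 1 FPKM. Coordinates are from GENCODE M21, which held 99.2% of the identifiers. The table's Ccdc109b and 9430016H08Rik are printed as Mcub and Maip1. Members and lists were chosen with earlier results of these data known. Outside the 6 genes, those named are every gene compared in mitochondrial lists of up to 10 genes, and in longer lists up to 5 with separate bounds and the largest log2 ratios. Marker lists are given as counts and sums, and other names were added after values were seen. A listed gene is not reported here. Because 2 values per gene give no pattern to rank, no genes of like pattern were named. The calculations were tested on simulated data (Python 3.11.15, pandas 2.3.3). Alternatives covered pseudocounts, filters, thresholds and scalings.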

Additional observations from a re-analysis of the deposited data

How the results depend on the processing

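No paired analysis was possible because each group has a single pooled FPKM per gene, and no library was left out in turn. The spread between libraries is not given, so it could not be weighed for any value. The depth in reads is unknown, so no counting error is given.

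The log2 ratios of the 6 genes ran from -0.85 to -0.29 for Mcu, -1.05 to -0.52 for Micu2, -0.84 to -0.22 for Micu3, -1.65 to -1.09 for Letm1, 0.19 to 0.78 for Slc8b1 and -0.20 to 0.31 for Smdt1, the gene whose sign turned. The log2 ratio of Micu2 came under 1 in size with a pseudocount of 5 (-0.92), on centring (-0.96) and under the 3 rescalings. The median of all genes moved from -0.06 to 0.38 when the groups were scaled to the mitochondrial list, to 0.11 with an equal upper quartile and to 0.07 without mitochondrially encoded and top genes. The number of uniporter genes lower with separate bounds, 1, became 0 with an equal upper quartile and 0 on the mitochondrial list. It was 2 by the 2-fold and 3 by the 1.5-fold threshold, which replace the bounds. Among all genes, 1091 were lower with separate bounds and 780 higher. Scaling to the mitochondrial list gave 436 lower and 1881 higher, because it raises all Rbfox2 OE values by a factor of 1.43. Rescaling without mitochondrially encoded and top genes gave 825 lower and 1016 higher. A mean of at least 5 FPKM left 7522 genes and 446 higher. Under the rescaling without mitochondrially encoded and top genes, 1 of the calcium-responsive enzymes and carriers, Slc25a24, became higher with separate bounds, and 3 of the 20 reference genes were lower by that count. For the other changes the cause was not tested.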
